A study of Mus musculus with 6 samples.

Results

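The 10 apolipoprotein genes Apoa1, Apoa2, Apoa4, Apoa5, Apob, Apoc1, Apoc2, Apoc3, Apoe and Apoh were followed in hepatocytes of female mice at 3 stages of gestation and lactation. They were taken by symbol from a table of read counts with 40824 gene rows, and all 10 had a row and passed the filter on low counts. The mice were wild-type C57BL/6J, mated at about 8 weeks of age. The 3 stages were G0 (day 0 of gestation), G14.5 (gestation, the number being the day) and P7L (day 7 after birth, lactating). Each stage had 2 libraries, 1 of nuclei from liver tissue and 1 of nuclei after liver perfusion. The labels call the samples single nuclei, whereas the protocol attached to them describes the picking of single hepatocytes after collagenase perfusion, so whether a value comes from a nucleus or a whole cell cannot be told apart. They name no animal, so how many mice each library holds is unknown. Each combination of stage and preparation has 1 library and no replicate. The p-values between stages therefore rest on how far the 2 preparations disagree about the stages, with part of that spread borrowed from other genes. This spread may be technical.

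Apolipoproteins are the protein part of the lipoproteins that carry triglyceride and cholesterol in blood, and the liver makes most of them. Apob is the large scaffold around which a very low density lipoprotein is built, and Apoa1 and Apoa2 are the main proteins of high density lipoprotein. Apoc2 is the cofactor that lipoprotein lipase needs, Apoa5 favours the clearance of triglyceride, and Apoc1 and Apoc3 restrain lipolysis and uptake. Apoe is a ligand of the receptors that clear lipoprotein remnants, Apoa4 rides on triglyceride-rich and high density particles, and Apoh (beta-2-glycoprotein I) binds anionic phospholipid. In late pregnancy the mother's blood carries more triglyceride, and during lactation the mammary gland takes triglyceride up for milk.

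On GRCm38 with GENCODE M21 annotation, 7 of the 10 genes lie in 2 clusters. The chromosome 9 cluster spans 43.3 kb and holds Apoa1 (46228580 to 46230466, plus strand), Apoc3 (46232933 to 46235636, minus strand), Apoa4 (46240696 to 46243459, plus strand) and Apoa5 (46268633 to 46271919, plus strand). The chromosome 7 cluster spans 27.6 kb on the minus strand, with Apoc2 (19671579 to 19677941), Apoc1 (19689481 to 19692660) and Apoe (19696109 to 19699188). Apoa2 is on chromosome 1 (171225054 to 171226379), Apoh on chromosome 11 (108343354 to 108414396) and Apob on chromosome 12 (7977648 to 8016835), all on the plus strand. The first protein-coding transcript of Apob has 28 exons, that of Apoh 8, and those of the others 3 or 4. Apoc2 overlaps the read-through gene model Gm44805 on the same strand, and Apoh overlaps Gm11656 on the same strand. Apoa4, Apoa5 and Apoh each overlap a gene on the other strand (Gm10680 and Gm47528, Gm47544, and Prkca). The sources used here do not state whether strand was used in counting, and strand could not separate partners on the same strand. Reads of such partners cannot be told apart, so these 4 counts carry that uncertainty.

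The promoters of 3 genes whose levels changed between stages are shown because 2 of them rose and 1 fell at G14.5, and 2 lie in the clusters named above. Each run holds the 150 bases before the transcription start on the gene's own strand, 5′ to 3′, from RefSeq on GRCm38.p6. Capitals mark matches to the searched motifs. The windows are chr7:19677942-19678091 (minus strand) for Apoc2, chr1:171224904-171225053 (plus strand) for Apoa2 and chr9:46268483-46268632 (plus strand) for Apoa5.
Apoc2: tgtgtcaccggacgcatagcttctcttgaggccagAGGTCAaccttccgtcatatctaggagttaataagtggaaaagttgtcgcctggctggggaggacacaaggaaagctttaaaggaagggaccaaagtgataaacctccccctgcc
Apoa2: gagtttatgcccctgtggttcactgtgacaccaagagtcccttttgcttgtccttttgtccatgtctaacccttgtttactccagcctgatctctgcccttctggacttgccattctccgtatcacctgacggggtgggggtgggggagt
Apoa5: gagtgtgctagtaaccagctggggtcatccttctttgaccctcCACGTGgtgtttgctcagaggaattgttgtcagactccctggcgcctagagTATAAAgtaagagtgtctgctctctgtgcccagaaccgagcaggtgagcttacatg

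Of the 10 genes, 8 had an entry in the RefSeq promoter table. The 250 bases before each start were searched on both strands for 4 motifs. These were AGGTCA (a nuclear receptor half-site), CACGTG (an E-box), TATAAA (the core of the box bound at many start sites) and CAAAGNNCA (HNF4 type), and no 2 matches overlapped. Apoc2 has AGGTCA at -115 to -110, counted back from the start site, and 14.04% of all 32536 promoters have it in the same window. Apoa5 has CACGTG at -107 to -102, which 6.04% of promoters have, and TATAAA at -56 to -51, which 12.31% have. Apob, whose level did not pass the test in any stage comparison, has TATAAA at -60 to -55 and the HNF4-type motif at -103 to -95, the latter found in 5.51% of promoters. Apoa2 has TATAAA at -212 to -207, outside the bases printed above. Apoh has AGGTCA at -215 to -210 and the HNF4-type motif at -93 to -85, and Apoa4 has the HNF4-type motif at -182 to -174. The RefSeq start used for Apoh, 108395297, lies 51943 bases from the GENCODE gene start given above. Its motifs are counted from that RefSeq start, inside the gene. For Apoa4 and Apob the 2 starts lie 148 and 29 bases apart. A match describes these letters only.

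The authors counted reads per gene and nucleus, and all comparisons between stages use 1 sum per library. Libraries held 184 to 308 nuclei, 1567 in all, and 226030591 to 379767336 reads, with a median of 731494.5 to 1191576 reads per nucleus. No nucleus name occurred in 2 libraries. The 9 hepatocyte markers found in the table (Alb, Ttr and others) took 14732 to 17470 CPM (reads scaled to 1000000 per library) in the 6 libraries. Markers of 7 other cell types, from cholangiocytes to erythroid cells, took at most 37.5 CPM per list, the highest being the endothelial list in G0 perfusion. Erythroid markers ran from 6.86 to 9.71 CPM in the liver tissue libraries and from 0.752 to 1.30 in the perfusion libraries. Kupffer cell or macrophage markers ran from 13.6 to 17.9 CPM in liver tissue and from 6.11 to 7.87 in perfusion. Neutrophil markers were also higher in liver tissue (0.166 to 0.387 CPM, against 0.105 to 0.119). The ranges of the remaining non-hepatocyte lists overlapped between the preparations.

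Across libraries, 0.483% to 0.660% of all reads belonged to the 10 apolipoproteins. To compare genes with each other, the authors' length-scaled values were averaged over the nuclei of a library. These are TPM-like values scaled to 100000 per nucleus over all genes except Alb, Apoa2 and Fabp1. Because Apoa2 stands outside that sum, it can be high in a nucleus without lowering the other values there, and it made up as much as 17.8% of the full total of 1 nucleus of G0 liver tissue, against a median of 0.769% in that library.

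On this length-scaled level Apoa2 was the highest apolipoprotein at every stage, with 1513 and 870 at G0 (liver tissue first, then perfusion, here and below). At G14.5 its values were 1630 and 1175, and at P7L 1116 and 905. At G0 the next 4 were Apoc1 (411 and 298), Apoe (368 and 244), Apoc3 (325 and 284) and Apoa1 (303 and 232), and neighbours among these 4 had overlapping library ranges. Apoh (64.9 and 59.9), Apoa5 (51.6 and 41.8), Apoc2 (39.6 and 46.1), Apob (19.4 and 15.4) and Apoa4 (0.163 and 0.230) followed, with Apoa5 and Apoc2 overlapping. The order shifted at G14.5, where Apoa1 was second (286 and 264), above Apoc3 (230 and 205), Apoe (259 and 151), Apoc1 (164 and 139) and Apoc2 (129 and 95.3). There Apoc3 overlapped Apoe and Apoe overlapped Apoc1, and no other neighbours did. At P7L Apoc1 was again second (292 and 208), overlapping Apoc3 (251 and 234), which overlapped Apoe (237 and 227), and Apoa1 came after these (199 and 177). Apob and Apoa4 were the lowest at all 3 stages.

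**Figure D1:**
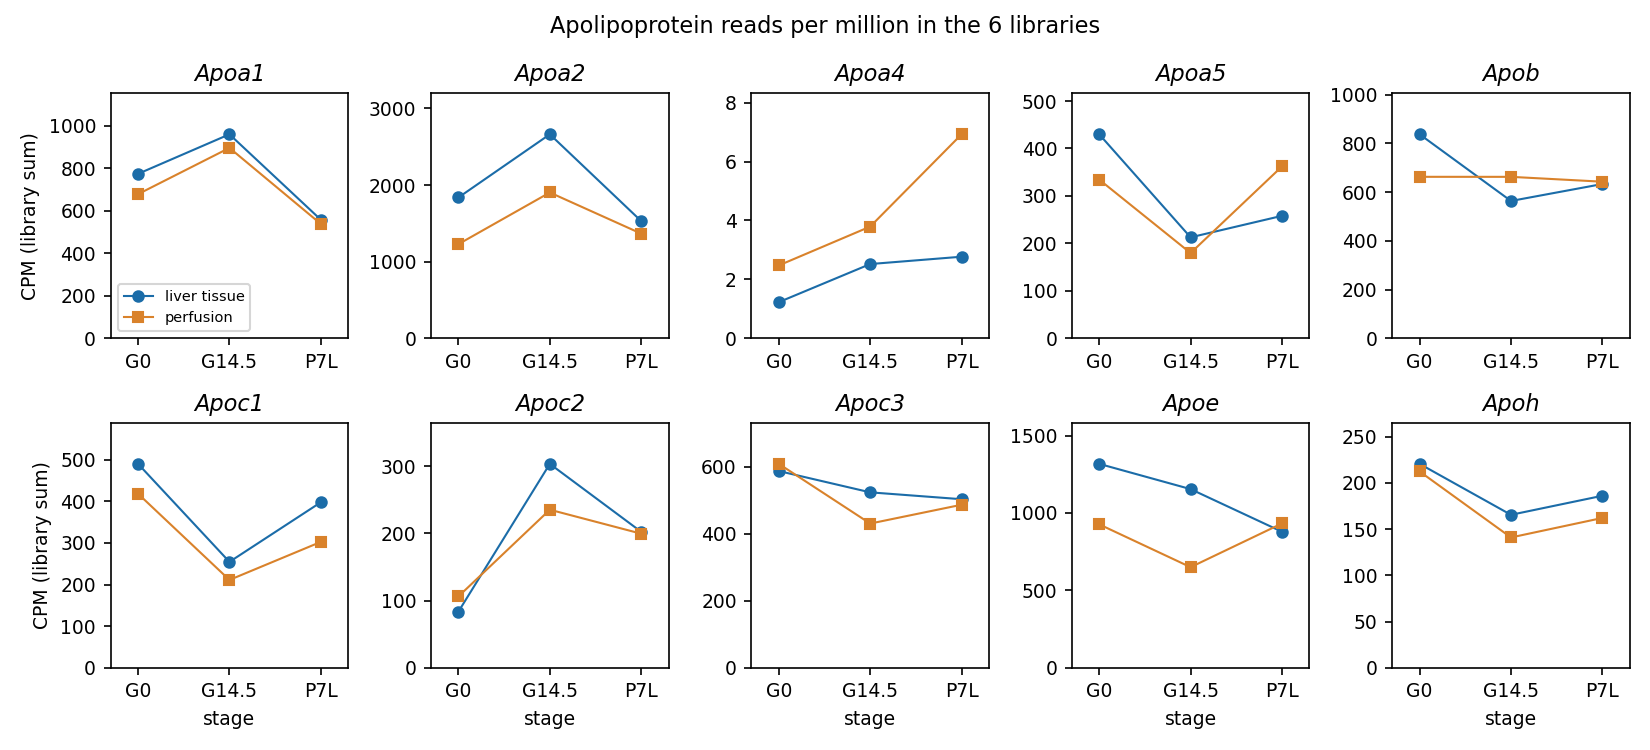
Normalised read counts of the 10 apolipoproteins, 1 panel per gene, with the stage on the x axis and CPM of the library sum on the y axis, starting at 0. Circles are the liver tissue libraries and squares the perfusion libraries. Apoc2 is higher and Apoc1 and Apoa5 are lower in both G14.5 libraries than in both G0 libraries.

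How the mother's hepatocytes differ later in gestation was asked by setting G14.5 against G0. Apoc2 and Apoa2 rose, and Apoc1 and Apoa5 fell, so that 4 of 10 apolipoproteins passed the test. Among all 15015 genes tested, 11.9% passed, 6.93% higher and 5.01% lower. The median log2 fold change of the 10 was -0.31, against -0.01 over all tested genes. Calls are those of the edgeR quasi-likelihood test with terms for stage and preparation, at a Benjamini-Hochberg adjusted p under 0.05 over all genes. Levels in this and the following comparisons are CPM after TMM normalisation, and differences are log2 fold changes with their standard error.

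Apoc2, the cofactor of lipoprotein lipase, had 83.7 and 106 CPM at G0 and 304 and 235 CPM at G14.5. The groups did not overlap, and liver tissue was the lower library at G0 and the higher at G14.5. The rise was 2.83-fold (log2 1.502 ± 0.19 SE, adjusted p = 0.00430, edgeR), with 1.86 in liver tissue alone and 1.146 in perfusion alone. Reads of Apoc2 were present in 91.3% and 97.8% of nuclei at G0 and in 100% in both G14.5 libraries. Apoc1, which lies in the same chromosome 7 cluster, had 490 and 418 CPM at G0 and 255 and 211 CPM at G14.5. Both G14.5 libraries were below both G0 libraries, a 1.95-fold fall (log2 -0.97 ± 0.12 SE, adjusted p = 0.00399), with -0.94 and -0.99 in the 2 preparations. The other member of that cluster, Apoe, had 1317 and 926 CPM at G0 and 1154 and 650 CPM at G14.5. Its groups overlapped and it did not pass (log2 -0.34, 95% interval -0.81 to 0.14, adjusted p = 0.315).

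Apoa5, which promotes triglyceride clearance, had 430 and 334 CPM at G0 and 213 and 180 CPM at G14.5. Both libraries of the later stage were lower, and the fall was 1.95-fold (log2 -0.96 ± 0.21 SE, adjusted p = 0.0294). Apoc3, the inhibitor in the same chromosome 9 cluster, had 587 and 608 CPM at G0 and 523 and 430 CPM at G14.5, groups that did not overlap, but it missed the threshold (log2 -0.33 ± 0.13 SE, adjusted p = 0.136). The call for Apoa5 was lost when either G14.5 library or the G0 liver tissue library was left out (adjusted p = 0.0907, 0.152 and 0.104). It was also lost in 3 of 13 other settings, with no filter (0.0509), with filterByExpr as the only filter (0.0634) and on the authors' mean values with a pseudocount of 1 (0.0577).

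Of the high density lipoprotein genes, Apoa2 had 1838 and 1229 CPM at G0 and 2663 and 1903 CPM at G14.5. Each G14.5 library was above both at G0, with only a small gap between the G0 liver tissue and G14.5 perfusion libraries, and the rise was 1.496-fold (log2 0.58 ± 0.13 SE, adjusted p = 0.0289). Apoa1 had 774 and 678 CPM at G0 and 960 and 896 CPM at G14.5, also without overlap, and missed the threshold (log2 0.36 ± 0.11 SE, adjusted p = 0.0746). The Apoa2 call was lost without either G14.5 library or without G0 perfusion (adjusted p = 0.165, 0.0752 and 0.07496). In 6 of 12 other settings it was also lost. These were filterByExpr as the only filter (adjusted p = 0.0515), no preparation term (0.1145), thinned nuclei (0.1223), the authors' median nucleus (0.0533), and the mean of the authors' values, where the log2 change was 0.27 with a pseudocount of 1 and with 0.1.

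Apob had 837 and 662 CPM at G0 and 563 and 662 CPM at G14.5, so the perfusion libraries of the 2 stages were level, and it did not pass (log2 -0.29, 95% interval -0.65 to 0.07), although it did without G0 perfusion (-0.52, adjusted p = 0.0446). Apoh had 221 and 212 CPM at G0 and 165 and 141 CPM at G14.5. Its groups were apart, and its adjusted p of 0.0524 was just over the threshold (log2 -0.50 ± 0.13 SE). Without G0 liver tissue its log2 change was -0.58. It passed with library size scaling (13.3% of all tested genes called), thinned nuclei (14.7%), DESeq2 (22.7%) and the authors' values. The latter called 8.31% of all genes with a pseudocount of 1, 12.2% with 0.1 and 37.4% in the median nucleus. Apoa4 stayed between 1.23 and 3.79 CPM in these 4 libraries and did not pass (log2 0.84 ± 0.50 SE).

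**Figure D2:**
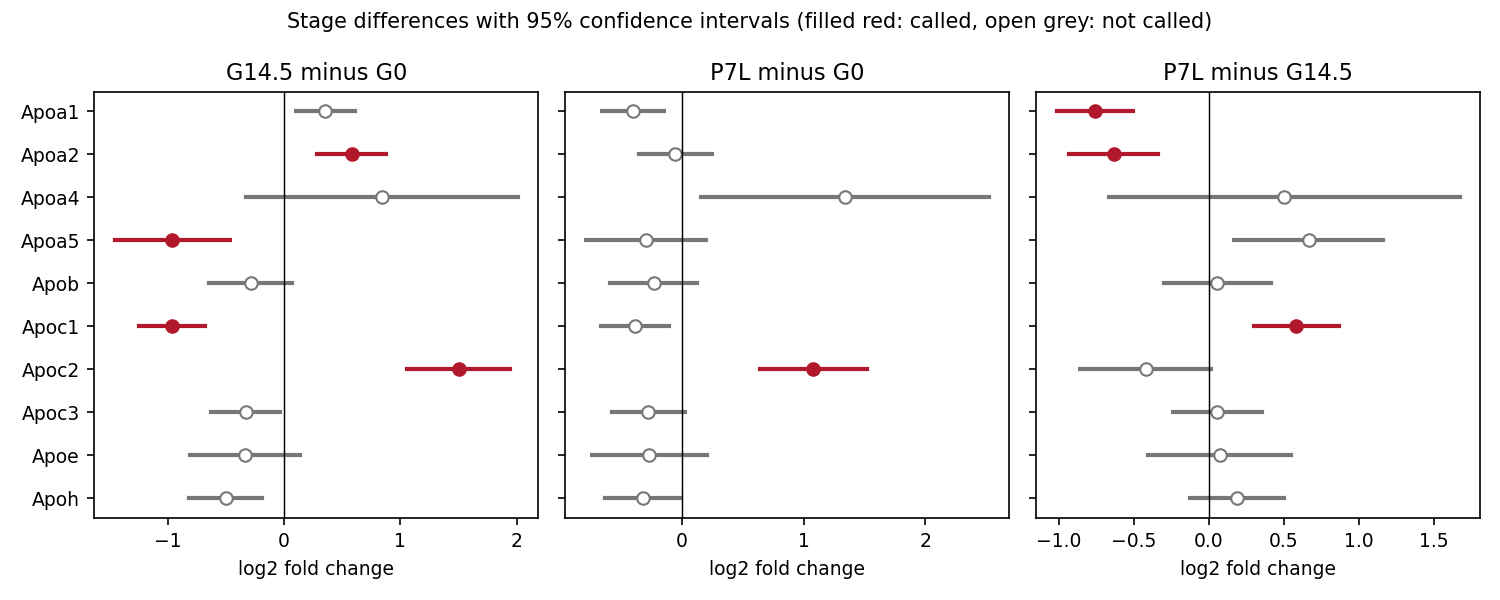
Log2 fold changes of the 10 apolipoproteins (x axis) in the 3 stage comparisons, 1 panel each, with genes on the y axis. Bars are 95% confidence intervals from the fit, and filled red points mark genes that passed the test. Apoc2 at 1.502 and Apoc1 at -0.97 lie on opposite sides of 0 in the left panel.

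The proportion of Apoc2 to Apoc1 can be read in single nuclei without library scaling. With both genes scaled by length, Apoc2 made up a median of 5.78% and 9.94% of the pair at G0. At G14.5 the medians were 36.9% and 38.5%, and at P7L 18.5% and 22.9%. The middle range of nuclei, from the first to the third quartile, ran from 1.61% to 17.3% in G0 liver tissue and from 25.05% to 55.6% in G14.5 liver tissue. In perfusion these ranges were 3.12% to 20.1% at G0 and 23.8% to 54.5% at G14.5. Both G14.5 medians were above both at P7L, and both at P7L above both at G0. In whole libraries the number of Apoc2 reads per Apoc1 read was 0.171 and 0.254 at G0. At G14.5 it was 1.19 and 1.11, and at P7L 0.509 and 0.660. Beside Apoc3, Apoc2 had a median share of 6.90% and 10.1% at G0, of 29.8% and 30.7% at G14.5, and of 21.7% and 20.3% at P7L. These shares restate levels already compared and carry no test.

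**Figure D3:**
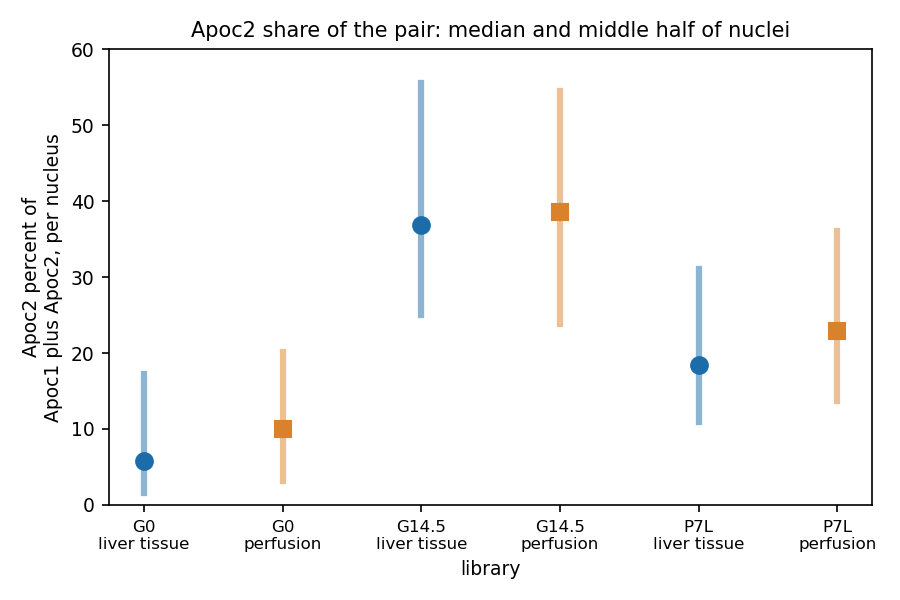
Apoc2 as a percentage of the length-scaled Apoc1 and Apoc2 values in single nuclei (y axis) for the 6 libraries (x axis). Points are the median nucleus, circles for liver tissue and squares for perfusion, and bars span the first to the third quartile of nuclei. The medians are 5.78% and 9.94% at G0 and 36.9% and 38.5% at G14.5.

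Lactation was set against day 0 of gestation. Only Apoc2 passed, and it rose, where 2.92% of all tested genes passed (1.56% higher). It had 83.7 and 106 CPM at G0 and 202 and 200 CPM at P7L, and the 2 groups were well apart. The rise was 2.115-fold (log2 1.08 ± 0.19 SE, adjusted p = 0.0334), with 1.27 in liver tissue and 0.91 in perfusion. The call was lost without either P7L library (adjusted p = 0.149 without liver tissue and 0.2005 without perfusion) or without G0 liver tissue (0.0504), while the log2 change stayed between 0.82 and 1.36.

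None of the other 9 passed. Apoa1 had 774 and 678 CPM at G0 and 558 and 538 CPM at P7L, without overlap (log2 -0.40 ± 0.11 SE, adjusted p = 0.0918). Apoc1 had 490 and 418 CPM at G0 and 398 and 303 CPM at P7L, also apart (log2 -0.38 ± 0.12 SE, adjusted p = 0.130). With nuclei thinned to 250000 reads, both of these passed as well as Apoc2, so 3 of 10 were called. In that setting 4.87% of all tested genes passed. Apoa4 showed the largest estimate, from 1.23 and 2.47 CPM to 2.77 and 6.92 CPM (log2 1.34 ± 0.50 SE, adjusted p = 0.190). It passed with DESeq2 alone, which called 12.7% of all tested genes here. The median of the 10 was -0.27, against 0.01 over all tested genes.

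Between P7L and G14.5, 2 of 10 fell and 1 rose, where 9.26% of all tested genes passed, 4.2% higher and 5.06% lower. Each stage enters 2 of the 3 comparisons, so they share libraries. The median of the 10 was 0.06 here, against 0.00 over all tested genes.

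Apoa1, at 960 and 896 CPM during G14.5, had 558 and 538 CPM at P7L, and the groups were far apart. The fall was 1.69-fold (log2 -0.76 ± 0.11 SE, adjusted p = 0.00649), with -0.78 and -0.74 in the 2 preparations. Apoa2 fell from 2663 and 1903 CPM to 1530 and 1366 CPM (log2 -0.63 ± 0.13 SE, adjusted p = 0.0236). Apoc1 rose from 255 and 211 CPM to 398 and 303 CPM (log2 0.58 ± 0.12 SE, adjusted p = 0.0257). Leaving out either P7L library ended the call for each of the 3, and leaving out either G14.5 library ended those of Apoa2 and Apoc1. Without P7L liver tissue the adjusted p was 0.114 for Apoa1, 0.306 for Apoa2 and 0.317 for Apoc1. Without P7L perfusion it was 0.0760, 0.0549 and 0.170.

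Apoc2 lay between its G0 and G14.5 levels at P7L, and the difference between 304 and 235 CPM (G14.5) and 202 and 200 CPM (P7L) did not pass (log2 -0.42 ± 0.18 SE, adjusted p = 0.224). Apoa5 went from 213 and 180 CPM to 258 and 362 CPM, with no overlap, and did not pass (log2 0.67 ± 0.21 SE, adjusted p = 0.105). The stage difference was 0.28 (liver tissue) and 1.01 (perfusion), and without P7L liver tissue Apoa5 passed (1.04, adjusted p = 0.0341). With library size as the only scaling, which moved the median of all genes to 0.20, Apoa5 passed and Apoa2 did not. Apob (log2 0.06, 95% interval -0.30 to 0.41), Apoc3 (0.06, -0.24 to 0.35), Apoe (0.07, -0.41 to 0.55) and Apoh (0.19, -0.13 to 0.50) also did not pass.

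Perfusion was compared with liver tissue over the 3 stages. None of the 10 passed with edgeR, where 0% of all tested genes passed and 707 of 15015 had an unadjusted p under 0.05. DESeq2 called 0.566% of all tested genes here and also none of the 10. Apoa2 was lower after perfusion at each stage, with log2 differences of -0.58 (G0), -0.48 (G14.5) and -0.16 (P7L) (fitted -0.41 ± 0.10 SE, unadjusted p = 0.00521, adjusted p = 0.971, edgeR). Apoe was lower after perfusion at G0 (-0.51) and G14.5 (-0.83) but not at P7L (0.09), and its fitted difference was -0.42 ± 0.17 SE (adjusted p = 0.971). Apoc1 was lower after perfusion at all 3 stages (-0.23, -0.27 and -0.39), and Apoa4 higher at all 3 (1.01, 0.59 and 1.32). For Apoa5, Apob, Apoc2, Apoc3 and Apoe the 3 stages did not share a sign.

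Hepatocytes near the portal vein and near the central vein differ in metabolism, and each nucleus was placed on that axis by its reads of 20 pericentral genes (Glul, Cyp2e1 and others) and 20 periportal genes (Cyp2f2, Hal and others), none of them an apolipoprotein. The zone index is the pericentral part of these reads, and each library was split by it into 3 equal groups (periportal, middle and pericentral). The limits between groups lay at different index values in the 6 libraries (0.124 to 0.224 for the lower and 0.229 to 0.458 for the upper). Between 11 and 59 nuclei per library lay within 0.02 of a limit, so a group is a range and not a cell type. Reads of the 2 outer groups were summed and fitted with a block for the library, over 14977 genes.

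Apoa5 was lower in the pericentral group, the only one of the 10 to pass, where 3.57% of all tested genes passed (1.88% higher and 1.68% lower). In liver tissue it had 497 CPM periportally and 355 CPM pericentrally at G0. At G14.5 the 2 groups had 276 and 156 CPM, and at P7L 327 and 153 CPM. In perfusion the values were 351 and 319 (G0), 186 and 155 (G14.5), and 437 and 289 (P7L). All 6 libraries were lower pericentrally, by -0.14 (G0 perfusion) to -1.10 (P7L liver tissue), and the fitted difference was -0.57 ± 0.13 SE, 1.48-fold (adjusted p = 0.0462, edgeR). The call was lost with 2 groups in place of 3, with shorter gene lists, with thinned nuclei, with library size scaling and in 5 of 6 fits that left out a library, in which adjusted p ran from 0.0286 to 0.142.

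Along 6 equal steps of the index in P7L liver tissue, from periportal to pericentral, Apoa5 had 415, 315, 363, 279, 197 and 135 CPM without TMM scaling. In G14.5 liver tissue the steps were 263, 246, 203, 211, 145 and 151. In G0 perfusion they were 312, 367, 319, 433, 360 and 286, with the highest value past the middle. The most pericentral step was the lowest in 5 of 6 libraries, the exception being G14.5 liver tissue.

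Apoc3 was lower pericentrally in 5 of 6 libraries, by -0.31 to -1.03, and higher in G0 liver tissue (0.32). It did not pass (fitted -0.49 ± 0.16 SE, adjusted p = 0.151), and passed without the G0 liver tissue library (-0.65, adjusted p = 0.0277). The other 8 had fitted zone differences with intervals that held 0. For Apob the difference was 0.06 (95% interval -0.13 to 0.25), the narrowest of the 10, and for Apoc2 it was 0.00 (-0.30 to 0.30). Apoa4 had the widest, -1.94 (-4.89 to 1.01), on zone levels of 0.011 to 11.5 CPM. The median of the 10 fitted differences was -0.01, against 0.00 over all genes.

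**Figure D4:**
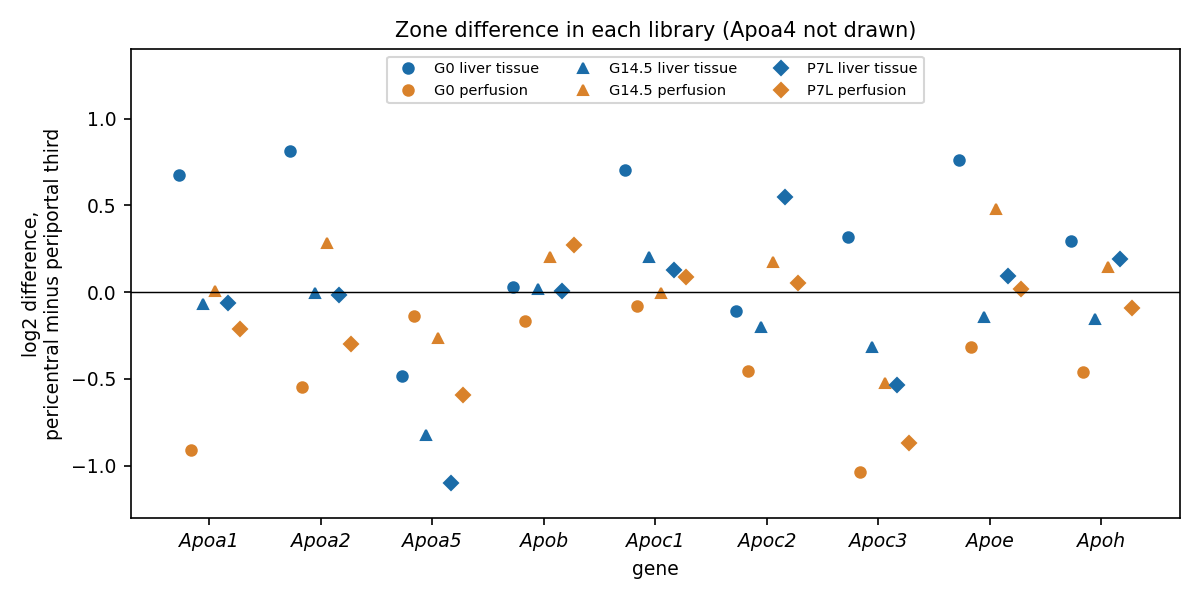
Log2 difference between the pericentral and periportal groups (y axis) for 9 apolipoproteins (x axis), 1 point per library, with blue for liver tissue and orange for perfusion and the shape giving the stage. Apoa4, with few reads, is not drawn. Apoa5 is below 0 in all 6 libraries, and G0 liver tissue and G0 perfusion lie on opposite sides of 0 for Apoa1, Apoa2, Apob, Apoc1, Apoc3, Apoe and Apoh.

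Whether the zone difference itself changed with the stage was tested as zone by stage. None of the 10 passed with edgeR, adjusted p being at least 0.896, and 0.00668% of all tested genes passed, with 960 of 14977 at an unadjusted p under 0.05. DESeq2, which called 2.54% of all tested genes, called none of the 10 either. The G0 libraries stood apart from each other here. In G0 liver tissue Apoa1, Apoa2, Apoc1 and Apoe were higher pericentrally by 0.68 to 0.81, while in G0 perfusion their differences were -0.08 to -0.91. Each combination of stage and preparation has 1 library, so the preparation and the single library cannot be told apart for that contrast.

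Between single nuclei of 1 library the apolipoproteins varied together to different degrees. Nuclei were thinned to 250000 reads, which left out 35 of 1567, and Spearman's rho was taken within each library and summarised by its median over the 6. Apoa1, Apoa2, Apoc1, Apoc3 and Apoe had medians of 0.45 to 0.73 with one another, highest for Apoa2 with Apoe (0.73, range 0.40 to 0.82). Apoh was intermediate, at 0.26 to 0.40 with these 5. Apoc2 had 0.10 to 0.17 with the 5, and Apoa5 and Apob had at most 0.09 with any other apolipoprotein. Single libraries spread widely around these medians, from 0.01 to 0.42 for Apoa5 with Apoc3 and from 0.20 to 0.70 for Apoc3 with Apoe. Apoa5 and Apoc3, which share the chromosome 9 cluster, had 0.09, and Apoc1 and Apoc2 had 0.16. Nuclei of a library are not replicates of a stage, so these values are descriptions without a test.

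**Figure D5:**
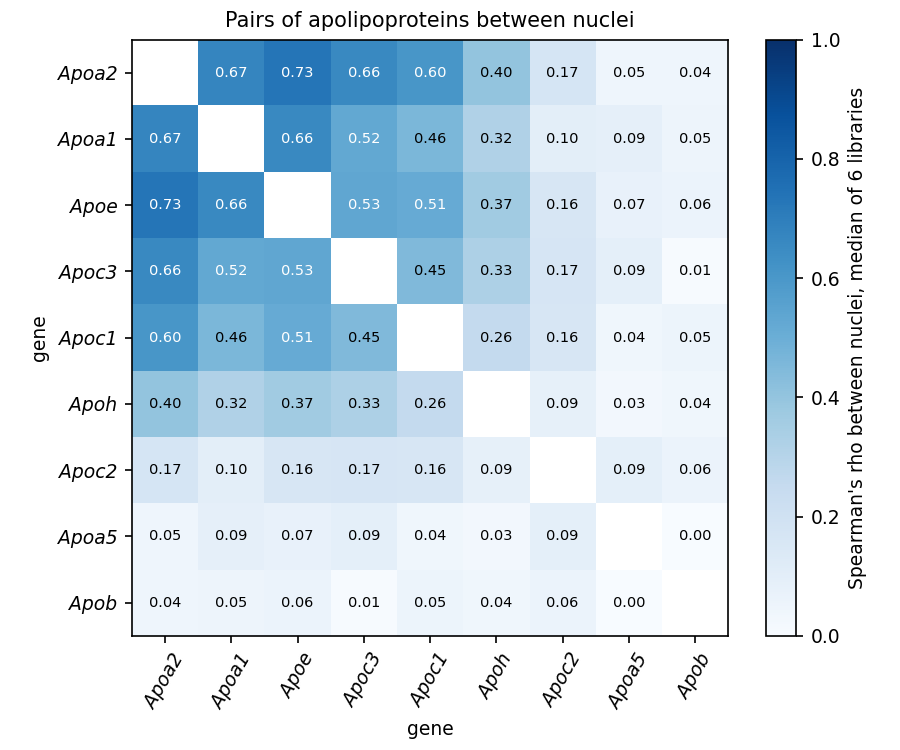
Spearman's rho between nuclei for each pair of 9 apolipoproteins (both axes), as the median of the 6 libraries, with darker blue for higher values. Apoa4 is left out because it has few reads. The 5 genes at the upper left have 0.45 to 0.73 with one another, and Apoa5 and Apob at the lower right at most 0.09.

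The genes most like each apolipoprotein between nuclei were sought among 5436 genes with reads in at least 50% of nuclei of every library, leaving out the 10 themselves and gene models named Gm or Rik. For Apoa1, Apoa2, Apoc3 and Apoe the nearest of these was Alb, the gene of serum albumin (median rho 0.59, 0.64, 0.53 and 0.57). For Apoc1 and Apoh it was Mup13, a major urinary protein gene (0.43 and 0.34), whose reads can be split among near-identical copies. Apoa5 was nearest to Hsd17b6 (0.24), Fbp1 (0.22) and Hal (0.22), of which Hsd17b6 and Hal are on the periportal list, and each ranged from below or near 0 to at most 0.35. Apob was nearest to Plekhg3 (0.19) and Apoc2 to Fabp1 (0.17). Against all genes the medians ran from -0.09 to 0.01.

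The spread over nuclei differed as well. On thinned reads the coefficient of variation of Apob was 47.5% to 72.2% in the 6 libraries, and that of Apoc2 103% to 154%. For Apoa1, Apoa2, Apoc1, Apoc3 and Apoe, G0 liver tissue had the widest spread of the 6 libraries, at 141% to 200%, against 53.5% to 101% in the others. In that library the mean length-scaled Apoa2 value, 1513, was well above the median nucleus, 784, whereas in G0 perfusion they were 870 and 712. Leaving out the 11 nuclei with over 5% of the authors' total in Alb and Fabp1, of which 3 were in G0 liver tissue, gave 4, 1, 3 and 0 calls in the 3 stage comparisons (in the order above) and the preparation comparison.

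Apoa4 was a rare signal. Reads were found in 5.95% and 5.98% of nuclei at G0, in 13.4% and 11.96% at G14.5, and in 15.9% and 22.8% at P7L. After thinning the shares were 3.798% and 1.66%, 10.7% and 8.33%, and 12.2% and 19.3% in the same order. The 10% of nuclei with the most reads held 90.4% to 100% of its reads. Its library values therefore rest on few nuclei, 11 to 68 with any read.

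Other genes related to the apolipoproteins by function or position were described from 6 lists, of which 95 genes were tested. Besides genes that act on lipoproteins, the 95 hold 29 regulators, 12 neighbours of the clusters and 11 other apolipoprotein or lipoprotein-bound genes. At G14.5 against G0, 12 were higher and 12 lower (25.3%), with a median log2 change of 0.02, where 11.9% of all tested genes passed. At P7L against G0, 1 was higher and 4 lower (5.26%, against 2.92% of all tested genes). At P7L against G14.5, 10 were higher and 11 lower (22.1%, against 9.26%). No listed gene passed between perfusion and liver tissue, where 0% of all tested genes did. Between zones, 9 were higher pericentrally and 2 lower (11.6%, against 3.57%). The lists were chosen with earlier results of these data known. Their shares, here and below, are therefore descriptions and cannot show that a list differs from all genes.

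Among 19 tested genes of particle assembly and secretion, 4 rose and 1 fell at G14.5 against G0, where 6.93% of all tested genes rose and 5.01% fell. Apobec1, the cytidine deaminase that edits the Apob message, had 39.0 and 63.7 CPM before and 127 and 111 CPM after (log2 1.25 ± 0.24 SE, adjusted p = 0.0191). Tm6sf2, which helps to load lipid onto the Apob particle, had 11.1 and 10.2 CPM before and 30.3 and 28.4 CPM after (1.46 ± 0.33, adjusted p = 0.0328). The lipid droplet coat gene Plin2 rose (1.05 ± 0.14), as did the cargo receptor gene Surf4 (1.05 ± 0.26), while Mia3, which serves the export of large cargo from the endoplasmic reticulum, fell (-0.98 ± 0.14). At P7L against G14.5, 4 of the 19 were lower, Apobec1 (-1.31 ± 0.24), Tm6sf2 (-1.47 ± 0.33), Sort1 (-1.43 ± 0.32) and Kif13b (-0.70 ± 0.15), and none was higher. Of all tested genes, 5.06% were lower and 4.2% higher there. None of the 19 passed at P7L against G0, where 2.92% of all tested genes did. The median of the list was 0.38, -0.28 and 0.01 in the 3 comparisons in that order.

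Of the 9 tested genes of plasma lipid enzymes and their inhibitors, Lipc, hepatic lipase, passed in all 3 stage comparisons. Its levels were 562 and 514 CPM (G0), 2628 and 2912 CPM (G14.5) and 179 and 169 CPM (P7L), with no overlap between any 2 stages. The change was 2.37 ± 0.12 at G14.5 against G0 (adjusted p = 0.000132), -1.63 ± 0.12 at P7L against G0 (0.00305) and -3.99 ± 0.13 at P7L against G14.5 (3.62e-05). Pltp, the phospholipid transfer protein, was higher than at G0 at both later stages (1.64 ± 0.29 and 1.73 ± 0.29). Endothelial lipase, Lipg, fell at G14.5 (-1.70 ± 0.38) and rose from there to P7L (3.25 ± 0.41), and so did Gpld1 (-1.09 ± 0.11 and 1.05 ± 0.11). Lpl, the lipase that Apoc2 activates, had 0.759 and 0.863 CPM at G0 and 5.29 and 3.99 CPM at G14.5 (2.52 ± 0.58). Its reads were found in 9.5% and 11.4% of nuclei at G0 and in 12.5% and 12.6% at G14.5. These Lpl levels therefore rest on few nuclei.

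Among 15 tested receptor and pump genes, 3 rose and 4 fell at G14.5 against G0, where 6.93% of all tested genes rose and 5.01% fell. The receptor gene Vldlr fell from 14.4 and 11.7 CPM to 0.933 and 0.649 CPM (log2 -4.05 ± 0.47 SE, adjusted p = 0.00305) and was at 2.21 and 2.24 CPM at P7L (-2.54 ± 0.44, adjusted p = 0.0332). Cd36, a fatty acid transporter, rose (1.45 ± 0.21), as did Sdc1, a heparan sulphate proteoglycan (1.10 ± 0.21), and Abcg5, a sterol export pump, fell (-1.57 ± 0.18). At P7L against G14.5, Abcg5 was higher (1.78 ± 0.18) and Sdc1 (-1.36 ± 0.21), Lrp5 (-1.38 ± 0.23) and Abca1, the pump that loads lipid onto Apoa1 (-0.66 ± 0.13), were lower.

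Of 29 tested regulator genes, 1 rose and 5 fell at G14.5 against G0, beside 6.93% and 5.01% of all tested genes. The falls included Nr2f2 (-1.44 ± 0.20), Srebf1 (-1.81 ± 0.30), Usf2 (-1.57 ± 0.28) and Mlxipl (-1.02 ± 0.18), and Ppara, with 1283 and 1225 CPM before and 850 and 896 CPM after, fell too (-0.52 ± 0.10). At P7L, Hnf4a, a main hepatocyte regulator, was at 200 and 241 CPM, below 360 and 366 CPM at G0 (-0.73 ± 0.13, adjusted p = 0.0369) and 334 and 415 CPM at G14.5 (-0.76 ± 0.13, adjusted p = 0.0137). Esr1, the oestrogen receptor gene, was lower at P7L than at both earlier stages (-0.81 ± 0.13 and -1.16 ± 0.13). Esrra (1.32 ± 0.22) exceeded its G14.5 level at P7L.

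Of 12 tested neighbours of the 2 clusters, Tagln, beside the chromosome 9 cluster, rose at G14.5 (2.07 ± 0.44, adjusted p = 0.0257), and from G14.5 to P7L Sik3 (0.48 ± 0.10) and Zpr1 (0.83 ± 0.19) rose. None of the 12 passed between zones, where 3.57% of all tested genes did. Among 11 other tested apolipoprotein and lipoprotein-bound genes, Apof fell (-1.14 ± 0.24) and Apol9b rose (0.81 ± 0.19) from G14.5 to P7L. None of these passed at G14.5 against G0 or at P7L against G0, where 11.9% and 2.92% of all tested genes did. Between zones, the 9 genes higher in the pericentral group included Pon1 (1.72 ± 0.13), Sort1 (1.80 ± 0.30), Vldlr (4.403 ± 0.47), Lpl (3.61 ± 0.53), Cd36 (1.44 ± 0.30) and Pparg (2.37 ± 0.37). The 2 lower ones were Esrra (-0.95 ± 0.20) and Srebf1 (-0.75 ± 0.16). Vldlr had reads in 5.3% to 33.7% of the nuclei of a library, and Lpl in 6.4% to 12.7%.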

How the data were processed

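Smart-seq3xpress, a plate method that reads full-length transcripts of single cells or nuclei, gave 6 libraries. The authors deposited read counts per gene and nucleus, and a table of TPM-like values. Per the submitters' processing notes, the tools were featureCounts 1.5.3, HISAT2 2.1.0 and Trimmomatic 0.39, and the build was GRCm38, also called mm10. From the values themselves, the deposited TPM sums to 100000 per nucleus without Alb, Apoa2 and Fabp1. Strand, filters on nuclei and doublet removal are not given in the sources used here, no doublet caller was run, and all 1567 nuclei were used. The counts are reads, not molecules. The 92 rows of ERCC controls held 0 reads.

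Counts were summed per library. Genes that passed filterByExpr and had a read in at least 5% of nuclei of at least 2 libraries were fitted with edgeR 4.0.16 (R 4.3.3; TMM, robust quasi-likelihood, stage plus preparation, 2 residual degrees of freedom, prior 5.13). Liver tissue is replicate 1 and perfusion replicate 2. The preparation term follows the labels and is no pairing by animal. The zone fit used 12 sums with a library block (5 residual degrees of freedom) and left the index genes out. Zone by stage was tested in that fit with an interaction (3 residual degrees of freedom).

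Named genes are the 10 apolipoproteins, up to 4 genes with the smallest p per pathway list and comparison, and the 3 nearest genes between nuclei. 1 gene that this rule names is not reported here. Surf4, Ppara and Lpl, outside that rule at G14.5, were named after their values were seen. The members and lists were chosen with earlier results of these data known. The fits were tested on simulated counts. Alternatives were other scaling and filters, limma-voom (limma 3.58.1), DESeq2 1.42.0, limma on the deposited TPM means, thinned nuclei, leaving out each library and other zone settings. The median nucleus and the removal of nuclei rich in Alb and Fabp1 were added after the data were seen. The median nucleus setting moved the median log2 change of its 5436 genes away from 0. It was 0.16 (G14.5 against G0), 0.50 (P7L against G0) and 0.32 (P7L against G14.5).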

Additional observations from a re-analysis of the deposited data

Results flagged for a closer look

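For 5 apolipoproteins the 2 preparations gave opposite signs in a stage comparison, with 1 library per stage and preparation, and the difference between preparations was not tested. From G0 to P7L the log2 difference of Apoa2 was -0.26 in liver tissue and 0.15 in perfusion, that of Apoa5 was -0.74 and 0.12, and that of Apoe was -0.58 and 0.009. From G14.5 to P7L it was 0.17 and -0.044 for Apob, -0.0576 and 0.18 for Apoc3, and -0.39 and 0.52 for Apoe. None of these 6 differences passed the test in the joint fit.

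The zone difference of Apoc1 in G0 liver tissue, 0.70 higher pericentrally, lay far from the other 5 libraries, which ran from -0.08 to 0.20. The gap was 0.642 of the whole range, against a limit of 0.625 for 6 values. Of 10 genes looked at in this way 1 stood out, and chance flags about 1 in 20 groups. In the same library the coefficient of variation of Apoc1 over thinned nuclei was 169%, the highest of the 6 libraries.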

How the results depend on the processing

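The calls rest on 2 libraries per stage. A left-out library leaves 1 stage with a single library, which is then assumed to vary like the others. Apoc1 and Apoc2 at G14.5 against G0 passed in all 13 other settings and all 6 fits without a library, with log2 changes of -1.21 to -0.91 and 1.23 to 1.89.

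At G14.5 against G0, 4 passed in the reported fit, where 11.9% of all tested genes did. FilterByExpr alone gave 2, where 7.05% of all tested genes passed. At P7L against G0, 1 passed in the reported fit, where 2.92% of all tested genes did. No filter (0.91% of all genes), filterByExpr alone (0.502%) and the authors' values with a pseudocount of 1 (0.04%) gave 0. DESeq2 (12.7% of all genes) and the median nucleus (60.7% of its 5436 genes) gave 2, and thinned nuclei (4.87%) gave 3. At P7L against G14.5, 3 passed in the reported fit, where 9.26% of all tested genes did. The fit without the preparation term (no replicate block) gave 1, where 10.6% of all genes passed. The authors' values gave 0 with a pseudocount of 1 (7.18% of all genes) and 1 with 0.1 (9.46%). Between zones, 1 passed in the reported fit, where 3.57% of all tested genes did. With 2 groups in place of 3 (2.88% of all genes), the short lists (3.7%), thinned nuclei (3.68%) and library size alone (3.53%), 0 passed. Without the preparation term the other stage counts were 3 (G14.5 against G0) and 1 (P7L against G0).

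Signs changed only where no call was made. Apoa2 at P7L against G0 was 0.0287 with library size alone, 0.0561 in the median nucleus and 0.0245 without nuclei rich in Alb and Fabp1, and -0.05 as reported. In these settings the median of all tested genes was 0.0883, 0.50 and 0.0074, and 0.007 as reported. With library size alone and in the median nucleus Apoa2 thus lay below the median gene. Between preparations Apoc2 was 0.0124 with thinned nuclei, 0.14 in the median nucleus and 0.0094 without rich nuclei. Between zones Apoh was 0.0027 with 2 groups and 0.0154 with library size alone, and Apoc2 was -0.0531 with the short lists. Over the fits that left out a library, the ranges that crossed 0 were these. At P7L against G0 they were Apoa2 -0.24 to 0.13, Apoa5 -0.71 to 0.0851, Apob -0.46 to 0.0089 and Apoe -0.67 to 0.0871. At P7L against G14.5 they were Apob -0.13 to 0.25, Apoc3 -0.0909 to 0.20 and Apoe -0.32 to 0.44. Between preparations they were Apoa5 -0.30 to 0.12, Apob -0.16 to 0.13, Apoc2 -0.20 to 0.16 and Apoc3 -0.17 to 0.0018. Between zones they were Apoa1 -0.24 to 0.0681, Apoa2 -0.11 to 0.16, Apoc2 -0.11 to 0.0932 and Apoh -0.0714 to 0.0771.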
